A study of Rattus norvegicus with 8 samples.

Results

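The fibroblast growth factor (FGF) receptors, the ligand Fgf2 and the feedback genes that FGF signalling switches on were examined as a set of 9 named rat genes, Fgfr1, Fgfr2, Fgfr3, Fgfr4, Fgf2, Dusp6, Spry1, Spry2 and Spry4. Their probes were found by symbol, through the accession of each array probe, a rule that uses no measured value, although the genes were named with earlier results of these data known. Of the 9 genes, 8 had a probe, out of 15154 genes with a probe on the array, and 7 passed the filter on dim probes, out of 10234 genes tested. Spry1 had no matched probe and has no value here. The member genes had 14 probes in all.

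FGFs bind receptor tyrosine kinases at the cell surface together with heparan sulfate, and the activated receptor recruits adaptors that pass the signal through RAS to the MAP kinases. The pathway limits itself, because MAP kinase activity induces Dusp6, a phosphatase that inactivates the kinase ERK, and the Sprouty proteins, which dampen signalling between receptor and RAS. In the rodent testis FGF2 is best known as a growth factor that, with GDNF, maintains spermatogonial stem cells in culture, and the 4 receptor genes are also used by somatic cells of the testis.

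Messenger RNA was measured in CD9-positive testis cells of Sprague Dawley rats on 8 single-colour microarrays. The aged group comprised 4 arrays of cells from rats of 21 months, and the young group comprised 4 arrays of cells from rats of 4 months. Rats of both ages carried a transgene that expresses green fluorescent protein specifically in germ cells, and the cells of both ages were sorted by fluorescence with an antibody against CD9, a surface protein of spermatogonia that other testis cells can carry too. The labels do not name the promoter of the transgene. They also leave unstated whether the arrays of one age represent different animals, and the p-values therefore refer to the spread among the arrays, and that spread may be technical only. The comparison addressed how transcript levels in this sorted fraction differ with age.

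Each level below is the log2 processed signal of a probe minus the 75th percentile of the non-control probes on its array, so a level of 0 lies at that percentile, and each change is the aged mean minus the young mean. A change was called when its Benjamini-Hochberg adjusted p from limma, taken over all genes tested, was under 0.05. The 75th percentile itself lay between 326 and 524 intensity units, between 63.0% and 72.0% of probes were well above background on each array, and no spot was saturated. All arrays sat on 1 slide and were read in 1 scan, the aged arrays in slide row 2 and the young ones in slide row 1, so slide row and age cannot be told apart. Young replicate 1 stood apart from the other arrays, with a limma array weight of 0.178 against 0.692 to 2.09 for the other arrays, and each call on a named gene that changed when it was left out is given both ways. Cd9, the antigen of the sort, was measured on all arrays and changed by −0.16 ± 0.16 (SE, n = 4 each, limma adjusted p = 0.492).

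No member was called by limma with all 8 arrays, beside 0.655% of all genes tested (67 genes, 51 higher and 16 lower in aged cells). At an unadjusted p under 0.05 there were 2 members, Fgfr2 and Fgfr3, and 3217 of all genes. The receptors Fgfr1, Fgfr2 and Fgfr3 were lower in aged cells by 0.39 to 0.54 on the log2 scale, and the feedback gene Spry2 was lower by 0.35. Dusp6, Fgf2 and Spry4 changed by −0.10, −0.12 and 0.09. The groups of Fgfr2 and Fgfr3 did not overlap. That makes 2 of 7 tested members, where 14.3% of all genes had groups that did not overlap in either direction and 4.12% had such groups with the aged arrays lower. The value was lower in aged cells for 6 of the 7 tested members, and for 36.6% of all genes, whose median change was 0.11. The median change of the tested members was −0.35, but Fgf2 was tested only because it was bright enough in young cells.

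**Figure D1:**
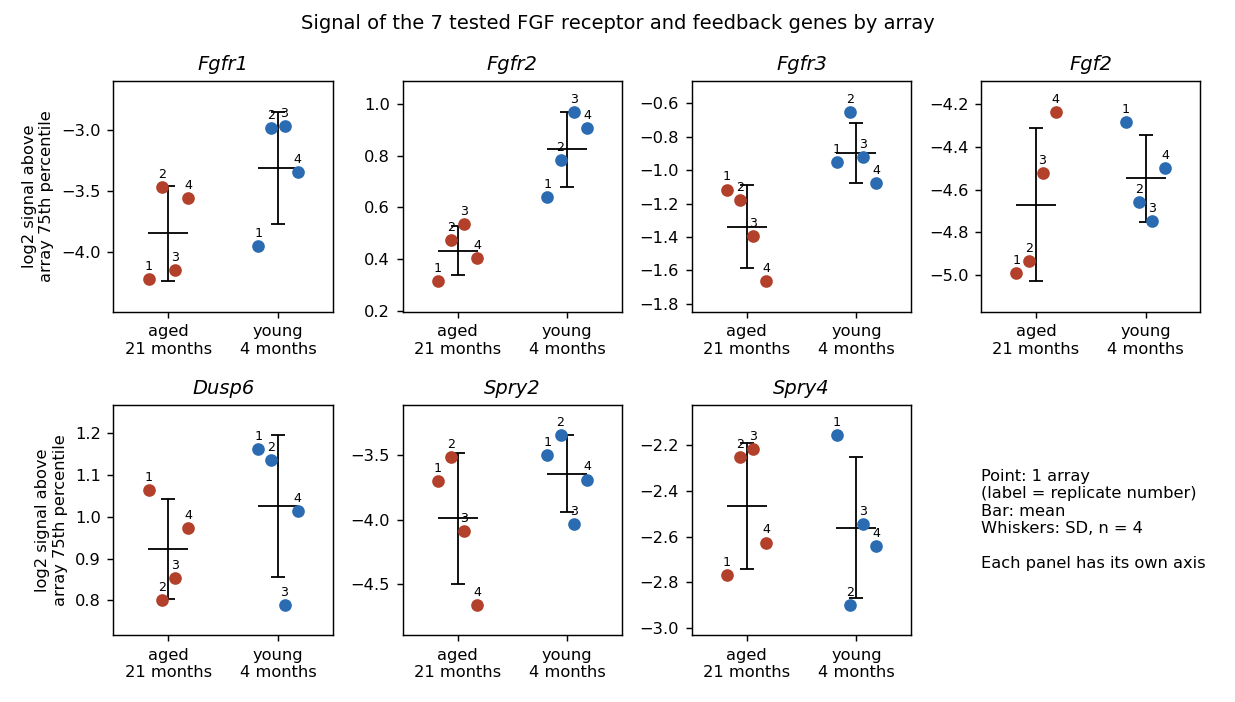
Level of each tested member on every array, as log2 above the 75th percentile of the array, with aged arrays left of young arrays in each panel, points for arrays labelled by replicate number and bars for the group mean with its SD (n = 4 each). The aged points of Fgfr2 (0.31 to 0.53) and Fgfr3 (−1.66 to −1.12) lie below all young points, and those of the other members overlap with the young points.

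Feedback genes of this pathway are known for elements bound by ETS factors and by Capicua, a repressor that MAP kinase signalling relieves and that represses DUSP6 and SPRY4 in human cells. The 250 bases before the annotated start of Dusp6 and Spry4, and of Fgfr2 and Fgfr3, are shown. Dusp6 and Spry4 are known targets of that repressor, and Fgfr2 and Fgfr3 are the members whose groups did not overlap. The sequences are those of RefSeq for build GRCr8, 5′ to 3′ on the strand of the gene, from chr7:35979354-35979603 on the plus strand for Dusp6 and, on the minus strand, from chr18:30702547-30702796 for Spry4, chr1:194280915-194281164 for Fgfr2 and chr14:81227210-81227459 for Fgfr3. Capitals mark matches to an ETS core (CCGGAA) or a Capicua core (TGAATG) on either strand, so a match on the opposite strand reads TTCCGG or CATTCA.
Dusp6: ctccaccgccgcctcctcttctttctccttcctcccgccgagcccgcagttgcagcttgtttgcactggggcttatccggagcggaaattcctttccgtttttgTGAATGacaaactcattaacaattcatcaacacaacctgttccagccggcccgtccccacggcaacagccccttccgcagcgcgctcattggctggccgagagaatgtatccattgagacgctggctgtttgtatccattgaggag
Spry4: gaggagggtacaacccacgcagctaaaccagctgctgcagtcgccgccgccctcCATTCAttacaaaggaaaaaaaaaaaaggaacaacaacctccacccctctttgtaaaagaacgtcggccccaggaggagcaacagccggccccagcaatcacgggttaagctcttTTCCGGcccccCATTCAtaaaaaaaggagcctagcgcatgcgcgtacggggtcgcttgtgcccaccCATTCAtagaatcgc
Fgfr2: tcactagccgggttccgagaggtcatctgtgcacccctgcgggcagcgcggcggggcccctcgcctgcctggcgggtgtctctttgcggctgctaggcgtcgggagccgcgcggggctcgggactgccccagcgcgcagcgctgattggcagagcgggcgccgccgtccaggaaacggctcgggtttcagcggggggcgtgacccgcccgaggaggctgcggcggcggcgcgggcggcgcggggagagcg
Fgfr3: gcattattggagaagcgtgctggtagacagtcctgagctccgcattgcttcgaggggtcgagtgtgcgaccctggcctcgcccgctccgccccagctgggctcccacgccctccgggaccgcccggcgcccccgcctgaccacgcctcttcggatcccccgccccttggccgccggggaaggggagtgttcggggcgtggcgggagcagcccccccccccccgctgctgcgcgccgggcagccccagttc
Dusp6 held 1 Capicua core, at −146 to −141 from the start, counted with the base before the start as −1. Spry4 held 3 Capicua cores, beginning at −196, −70 and −15, and 1 ETS core at −81 to −76. Fgfr2 and Fgfr3 held neither string in this window. Over all 33469 RefSeq promoter windows of this length, 12.6% held the ETS core and 11.2% held the Capicua core, so a single match is common, and a match is a description of the letters and not a site. No ETS match overlapped a Capicua match. Fgfr1 was not searched here, and among the other members the windows of Fgfr4, Fgf2 and Spry1 held neither string, and 1 of the 2 windows of Spry2 held 1 ETS core.

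Fgfr2 encodes a receptor tyrosine kinase whose splice forms in epithelium and mesenchyme bind different FGFs, and its probe A_64_P113700 was the one used because it was the brightest of 4. Its levels were 0.31, 0.47, 0.53 and 0.40 on the aged arrays, against 0.64, 0.78, 0.97 and 0.91 on the young arrays. Every aged array lay below every young array, and young replicate 1 was the lowest of its group. The mean was 0.43 ± 0.09 in aged cells and 0.82 ± 0.15 in young cells (SD, n = 4 each), a change of −0.39 ± 0.11 (SE, 95% interval −0.65 to −0.14), or 0.762 of the young level. The limma adjusted p was 0.077, short of the threshold, and the two-sided exact permutation test gave 0.0286, the smallest p that 4 arrays against 4 allow.

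The probe A_43_P10225 of Fgfr2, which was dimmer, moved the same way. It read −3.67, −3.83, −3.61 and −3.41 on the aged arrays and −3.05, −2.81, −2.73 and −2.96 on the young arrays. Again no aged array reached a young one, and young replicate 1 was the lowest young array. When every probe was tested as a feature of its own, this probe fell by 0.74 ± 0.13 (SE, 95% interval −1.03 to −0.46, n = 4 each) with a limma adjusted p of 0.0494, and it was the only one of the 11 tested member probes called, beside 0.536% of all 11948 probes. Its call sat close to the threshold and was lost under 16 of 23 other settings. Among them were the removal of any single array other than young replicate 1 (changes of −0.81 to −0.68) and normexp background correction with 75th percentile scaling (−0.28). Normexp was run with an offset of 50 units added to each corrected signal, and this by itself shrinks the log2 changes of dim probes. The value of the dimmer probe was lower in aged cells in all 23 (limma adjusted p of 0.00177 to 0.32). The remaining pair of Fgfr2 probes was too dim to test. One of them was well above background on 3 aged and 2 young arrays and the other on 1 array of each age, and their aged minus young differences were 0.28 and 0.35, opposite in sign to the bright probes. Without young replicate 1 the change of the brightest probe was −0.45 ± 0.09 (SE, n = 4 aged and 3 young) with a limma adjusted p of 0.0115, beside 36.9% of all genes called without that array.

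Fgfr3, a receptor known for restraining growth plate cartilage and for its expression in human spermatogonial stem cells, read −1.12, −1.18, −1.39 and −1.66 on the aged arrays, against −0.95, −0.65, −0.92 and −1.07 on the young arrays. The groups did not overlap, but the highest aged array and the lowest young array were close together. The mean was −1.34 ± 0.25 in aged cells and −0.90 ± 0.18 in young cells (SD, n = 4 each), a change of −0.44 ± 0.15 (SE, 95% interval −0.78 to −0.10) with a limma adjusted p of 0.102 and an exact permutation p of 0.0286. The dimmer probe of Fgfr3 changed by −0.63 ± 0.22 (SE, 95% interval −1.11 to −0.14), with a limma adjusted p of 0.106 among all probes. That probe gave −0.16 (limma adjusted p = 0.523) with normexp and 75th percentile scaling, and −0.75 (limma adjusted p = 0.0351) without young replicate 1. Leaving out young replicate 1 left the main probe at −0.46 ± 0.16 (SE, n = 4 aged and 3 young), with a limma adjusted p of 0.0622.

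Fgfr1, the receptor that mediates FGF2 signals in many mesenchymal and stem cells, had the most scattered levels of the tested receptors. The aged arrays read −4.23, −3.47, −4.15 and −3.56, and the young arrays read −3.96, −2.98, −2.96 and −3.35. The groups overlapped, because young replicate 1 fell inside the aged range while the other young arrays lay above all aged arrays. The mean was −3.85 ± 0.39 in aged cells and −3.31 ± 0.46 in young cells (SD, n = 4 each), a change of −0.54 ± 0.26 (SE, 95% interval −1.13 to 0.05) with a limma adjusted p of 0.189 and an exact permutation p of 0.114. The other probe of Fgfr1 changed by −0.53 ± 0.22 (SE, limma adjusted p = 0.146 among all probes) and was well above background on 2 of 4 aged and 4 of 4 young arrays, so it was tested only through the young group. Without young replicate 1 the change of the brighter probe was −0.75 ± 0.22 (SE, n = 4 aged and 3 young, limma adjusted p = 0.0334) and that of the dimmer one −0.71 (limma adjusted p = 0.0231). Fgfr1 and Fgfr2 were then the 2 members called, beside the 36.9% of all 10643 genes called in that fit. The processed signal of Fgfr1 ran from 17.6 to 44.6 units on aged arrays and from 21.0 to 64.5 units on young arrays and was dim on both. With another background correction, normexp with 75th percentile scaling, the change of Fgfr1 was −0.20 with the brighter probe and −0.155 with the dimmer one. That setting adds an offset of 50 units, which by itself shrinks the log2 change of probes this dim. The share of the offset in these smaller values was not tested.

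**Figure D2:**
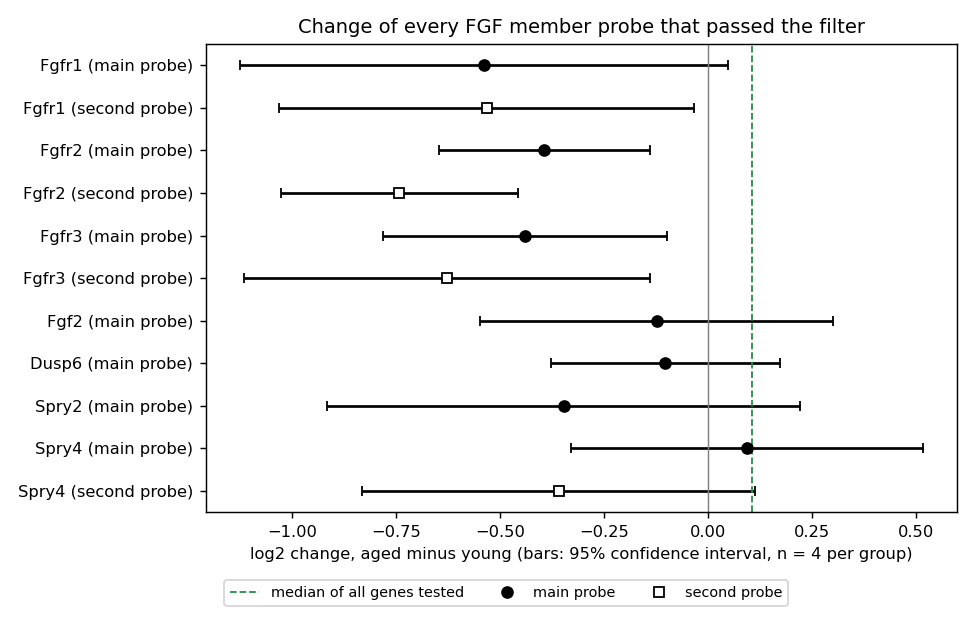
Log2 change, aged minus young, of each of the 11 tested probes of the member genes, with 95% intervals from the limma fit in which every probe was a feature (n = 4 each). All 6 tested probes of Fgfr1, Fgfr2 and Fgfr3 lie below 0, between −0.74 and −0.39, and the pair of Spry4 probes lies on opposite sides of 0. The dimmer Fgfr1 probe was tested only through the young group. The pair of Fgfr2 probes too dim to test, with differences of 0.28 and 0.35, is not shown.

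Fgfr4, a receptor best known for FGF19-type signalling in liver, was not well above background on any of the 8 arrays. Its processed signal was 2.57 to 4.28 units on aged arrays and 2.54 to 3.93 units on young arrays. It was not tested, and no fold is given.

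Markers of other cell types differed alongside Fgfr1. The markers of peritubular myoid and stromal cells were 12 genes, of which 10 passed the filter, Cnn1 and Lum did not, and all 10 were lower in aged cells, with 0 called by limma and 10 at an unadjusted p under 0.05. Their mean level ran from −2.96 to −1.87 on the aged arrays and from −2.22 to −0.36 on the young arrays, with young replicate 1 at −2.22 and the other young arrays between −0.50 and −0.36. As for Fgfr1, young replicate 1 thus lay within the aged range and the other young arrays above it. The 12 spermatid markers were also all lower in aged cells, with 0 called and 5 at an unadjusted p under 0.05. Their mean was 0.85 to 1.92 on aged arrays and 1.49 to 3.06 on young arrays. Young replicate 1, at 1.49, again lay within the aged range, and the other young arrays, at 2.54 to 3.06, lay above it. Of the 11 tested spermatocyte markers, out of 12, 10 were higher in aged cells and 6 were called. The remaining one, Ccna1, was lower in aged cells by 1.54 (limma adjusted p = 0.0526), with groups that did not overlap. The mean of the 11 was 0.30 to 0.80 on aged arrays and −0.41 to −0.04 on young arrays. Beside the counts of these 3 lists, 0.655% of all genes were called and 3217 of all 10234 had an unadjusted p under 0.05. In sorted bulk cells, fewer cells of a type and less RNA per cell cannot be told apart, and the part of these markers in the receptor differences was not tested.

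As for Fgfr2 and Fgfr3, the aged arrays lay below the young arrays without overlap in the means of 2 marker lists, and above them in the means of the spermatocyte and general germ cell lists. The markers of undifferentiated spermatogonia, 13 tested of 16, averaged −0.72 to −0.60 on aged arrays and −0.57 to −0.36 on young arrays. Of the 13, 9 were lower in aged cells, 0 were called and 3 had an unadjusted p under 0.05. The 3 were Gfra1 and Ret, lower in aged cells, and Epcam, higher in aged cells. Epcam changed by 0.46 (limma adjusted p = 0.0561), with groups that did not overlap. Of all 10234 genes, 3217 had an unadjusted p under 0.05. The endothelial markers, 4 tested of 8, averaged −2.72 to −2.53 on aged arrays and −2.36 to −2.01 on young arrays, with 0 called. Kdr and Eng changed by −1.02 and −0.715, each at an unadjusted p under 0.05. Pecam1 and Cdh5 changed by −0.11 and 0.10. The groups of each of the 4 overlapped. Tek, Tie1 and Esam were among those not bright enough to test. Macrophage markers, 7 tested of 9, were all lower in aged cells but their means overlapped, at −3.53 to −1.49 on aged arrays and −2.47 to −1.03 on young arrays. The means of markers of Sertoli cells (5 tested of 12) and Leydig cells (5 tested of 7) also overlapped. They were −1.30 to −1.16 and −3.47 to −2.33 on aged arrays, against −1.52 to −0.999 and −3.47 to −2.17 on young arrays. Of the 5 Sertoli markers 4 were higher in aged cells. Of these 5, 1 was called, Rhox5 at 0.82 (limma adjusted p = 0.0465), beside 0.655% of all genes. Of the Leydig markers 0 were called. The markers of differentiating spermatogonia (4 tested of 7) averaged −0.87 to −0.67 on aged arrays and −0.76 to −0.38 on young arrays, with 0 called. The 5 general germ cell markers, all tested, averaged 2.29 to 2.56 on aged arrays and 2.21 to 2.26 on young arrays. Among them 3 were higher in aged cells and 1 was called, Tex101 at 0.75 (limma adjusted p = 0.0465). The Sertoli markers Wt1, Fshr, Amh and Cldn11 did not pass the filter. The part of these lists in the receptor differences was not tested.

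**Figure D3:**
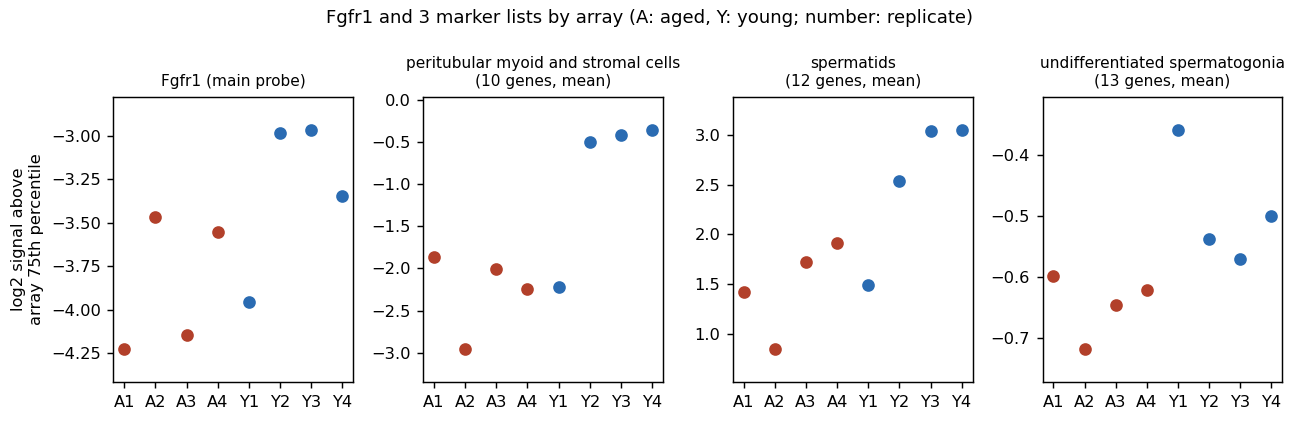
Level of Fgfr1 and mean level of the tested markers of 3 cell types on each array, as log2 above the 75th percentile of the array, with aged arrays left of young arrays and a scale of its own in each panel. Young replicate 1 lies with the aged arrays in the panels of Fgfr1 (−3.96), of peritubular myoid and stromal cells (−2.22) and of spermatids (1.49).

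Fgf2, the ligand itself, was at the edge of detection. It read −4.99, −4.93, −4.52 and −4.23 on the aged arrays and −4.28, −4.66, −4.75 and −4.50 on the young arrays, as the mean of up to 10 spots. It was well above background on 2 of 4 aged and 4 of 4 young arrays, and the groups overlapped. The change was −0.12 ± 0.19 (SE, 95% interval −0.55 to 0.30, n = 4 each, limma adjusted p = 0.668), an interval that holds differences of either sign.

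None of the 3 measured feedback genes was called, and none had an unadjusted limma p under 0.05. Dusp6, the phosphatase that inactivates ERK, read 1.07, 0.80, 0.85 and 0.97 on the aged arrays, against 1.16, 1.14, 0.79 and 1.01 on the young arrays. The arrays of both ages covered nearly the same range, and the lowest of all 8 was a young one. The change was −0.10 ± 0.12 (SE, n = 4 each, limma adjusted p = 0.576, exact permutation p = 0.343) with a 95% interval of −0.38 to 0.17. Dusp6 was measured on 10 spots per array and was bright, at 628 to 1027 units on aged arrays and 730 to 886 units on young arrays. A test of the difference between its change and that of the receptors was not made.

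Spry2, a Sprouty inhibitor that acts between receptor and RAS, read −3.70, −3.51, −4.09 and −4.66 on the aged arrays and −3.50, −3.35, −4.03 and −3.69 on the young arrays. The groups overlapped, and aged replicate 4 was the lowest array. The change was −0.35 ± 0.25 (SE, 95% interval −0.92 to 0.22, n = 4 each, limma adjusted p = 0.36, exact permutation p = 0.229), and it was −0.03 with normexp and 75th percentile scaling. Without aged replicate 4 it was −0.12 (limma adjusted p = 0.703).

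Spry4, the Sprouty gene whose promoter window above held the most Capicua cores, read −2.77, −2.25, −2.22 and −2.63 on the aged arrays and −2.16, −2.90, −2.55 and −2.64 on the young arrays with its brighter probe. The ages were interleaved. The change was 0.09 ± 0.19 (SE, 95% interval −0.33 to 0.52, n = 4 each, limma adjusted p = 0.751), and the dimmer probe gave −0.36 ± 0.21 (SE, limma adjusted p = 0.27 among all probes), or −0.10 with normexp and 75th percentile scaling. The pair of probes thus differed in direction, and the data fix no direction for Spry4.

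Direction was set against changes in processing. Fgfr1, Fgfr2 and Fgfr3 were lower in aged cells in all 25 alternative settings run, with changes of −0.94 to −0.17 for Fgfr1, −0.79 to −0.24 for Fgfr2 and −0.84 to −0.25 for Fgfr3. The limma adjusted p over these settings was 0.0144 to 0.505 for Fgfr1, 0.00543 to 0.437 for Fgfr2 and 0.0236 to 0.332 for Fgfr3. Spry2 was also lower in all 25, between −0.75 and −0.003. Scaling each array to 6 spike-in control probes put the median of all genes at −0.29, and Fgfr1, Fgfr2 and Fgfr3, at −0.94, −0.79 and −0.84, lay below that median. Scaling on the array median put the median of all genes at 0.26, Dusp6 at 0.05 and Fgf2 at 0.03.

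**Figure D4:**
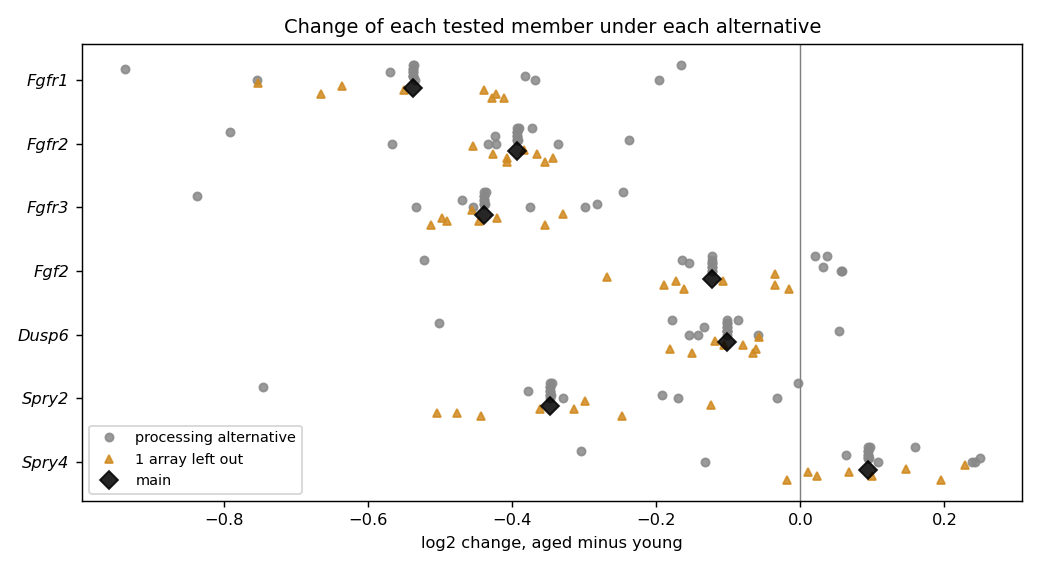
Log2 change, aged minus young, of each tested member under the main setting and under each alternative setting in which it was tested. All values of Fgfr1, Fgfr2, Fgfr3 and Spry2 lie at or below −0.003, and those of Fgf2, Dusp6 and Spry4 lie on both sides of 0.

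The other genes of the pathway were read from lists of 102 genes, of which 94 had a probe and 65 were tested, 3 of them only through the young group and 2 only through the aged group. None was called by limma, beside the 0.655% of all genes. At an unadjusted p under 0.05 there were 16 of the 65, and 3217 of all 10234 genes. Of the 65, 31 were higher and 34 lower in aged cells, with a median change of −0.01. The groups did not overlap for 5 of the 65 with the aged arrays lower, beside 4.12% of all genes. Of these 5, Sdc3 was tested only through the young group. With the aged arrays higher the groups did not overlap for 1 of the 65, beside 1042 of all 10234 genes. In either direction the share of all genes was 14.3%. Without young replicate 1, 15 pathway genes were called, beside the 36.9% of all genes.

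Among the co-receptors and heparan sulfate genes, which hold FGF at the receptor or trim its sugar chains, 16 of 22 were tested and 13 of those were lower in aged cells, with a median of −0.17 beside 0.11 for all genes. Sulf2, which removes sulfate groups from heparan sulfate outside the cell, read −0.80, −1.16, −0.67 and −0.82 on the aged arrays and −0.49, −0.22, −0.01 and −0.11 on the young arrays. All aged arrays were below all young ones. Its change was −0.66 ± 0.15 (SE, n = 4 each) with a limma adjusted p of 0.0561, and −0.75 with an adjusted p of 0.00773 without young replicate 1 (0.00284 to 0.335 over 25 alternatives). Sdc3, a membrane heparan sulfate proteoglycan, changed by −0.58 ± 0.19 (SE, limma adjusted p = 0.0894) and Flrt2, a membrane protein that binds FGF receptors, by −0.41 ± 0.15 (SE, limma adjusted p = 0.106). Sdc3 was well above background on 2 of 4 aged and 4 of 4 young arrays, so it was tested only through the young group. With normexp and 75th percentile scaling Sdc3 was at −0.06 and Flrt2 at −0.03.

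The adaptors and RAS to MAP kinase genes had the opposite balance, with 18 of 20 tested, 13 higher in aged cells and a median of 0.10, close to the 0.11 of all genes. Grb2, the adaptor that links receptors to the RAS exchange factor SOS, changed by 0.33 ± 0.12 (SE, n = 4 each, limma adjusted p = 0.114). As the mean of its probes Grb2 changed by 0.155 (limma adjusted p = 0.39). The docking protein Gab2 changed by 0.44 ± 0.16 (limma adjusted p = 0.117) and the ERK kinase Map2k2 by 0.33 ± 0.14 (limma adjusted p = 0.143). All aged arrays lay above young replicates 2, 3 and 4 for Grb2, and young replicate 1, at 2.29, lay inside the aged range of 2.21 to 2.48. Gab2 was well above background on 4 of 4 aged and 2 of 4 young arrays and gave 0.16 with normexp and 75th percentile scaling. Without young replicate 1 all 3 were called by limma, Grb2 at 0.42 (adjusted p = 0.0148), Gab2 at 0.59 (adjusted p = 0.00773) and Map2k2 at 0.46 (adjusted p = 0.00833). In that fit 36.9% of all genes were called.

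Of the ligands other than Fgf2, 3 of 20 were bright enough to test, and the median change was 0.02. Fgf13, an intracellular FGF that binds sodium channels and not receptors, changed by 0.11 ± 0.15 (limma adjusted p = 0.636), Fgf1 by 0.02 ± 0.15 (limma adjusted p = 0.921) and Fgf3 by −0.17 ± 0.13 (limma adjusted p = 0.384), each with SE and n = 4 per age. Ligands such as Fgf8 and Fgf9 had probes that did not pass the filter. The other feedback inhibitors had 7 of 13 genes tested and 5 higher, with a median of 0.11. Among them the RAS inhibitor Rasa1 changed by 0.28 ± 0.12 (limma adjusted p = 0.155), the RAS inhibitor Nf1 by 0.40 ± 0.20 (limma adjusted p = 0.206) and the ERK phosphatase Dusp5 by 0.24 ± 0.13 (limma adjusted p = 0.231). Without young replicate 1 Rasa1 was called, at 0.34 (limma adjusted p = 0.0391), beside 36.9% of all genes.

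The transcription factors and early targets of MAP kinases lay on both sides of 0, with 14 of 18 tested, 6 higher and 8 lower and a median of −0.06. Fosl1, a partner of JUN proteins, changed by 0.33 ± 0.12 (SE, limma adjusted p = 0.107) and Ets2 by −0.27 ± 0.10 (SE, limma adjusted p = 0.113), both with groups that did not overlap. Ets1, which like Ets2 is an ETS factor that MAP kinases phosphorylate, changed by −0.41 ± 0.17 (SE, limma adjusted p = 0.143), and by −0.09 with normexp and 75th percentile scaling. Without young replicate 1 Fosl1 and Ets2 were called, at 0.39 and −0.30 (limma adjusted p = 0.0265 and 0.035), beside 36.9% of all genes.

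**Figure D5:**
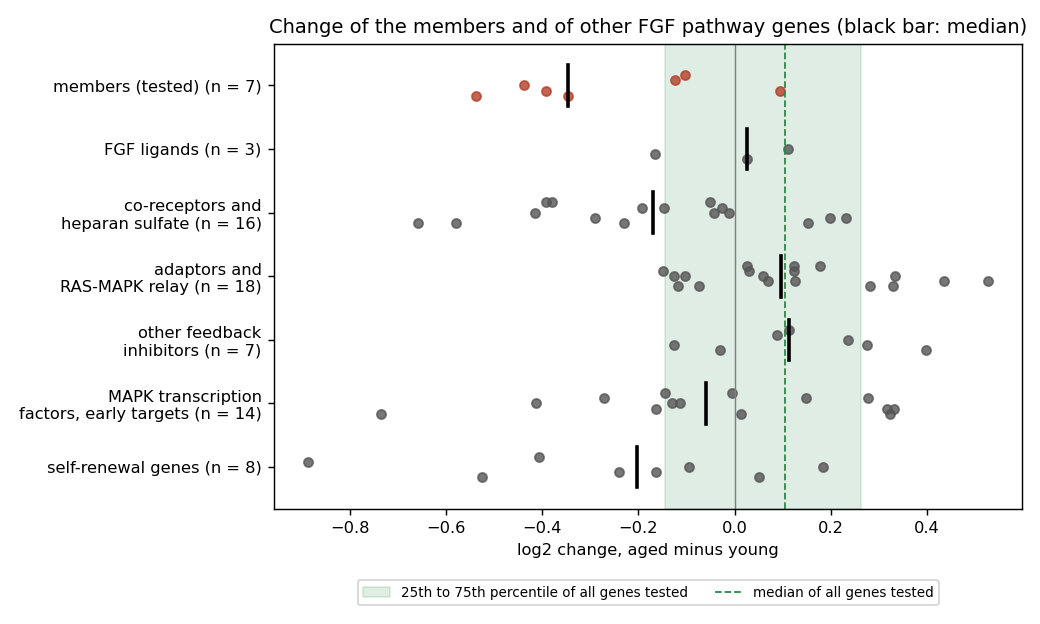
Log2 change, aged minus young, of every tested gene of the members and of each pathway list, with points for genes, a bar for the median of the list and a line for the median of all genes (0.11). The medians of the members (−0.35), the self-renewal genes (−0.20), the co-receptors (−0.17) and the transcription factors (−0.06) lie below 0, and that of the adaptors and relay (0.10) lies near the median of all genes.

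The list of spermatogonial self-renewal genes held targets of GDNF and FGF2 and also the GDNF receptor genes Gfra1 and Ret. Of its 10 genes 8 were tested, 6 of them lower, with 0 called and a median of −0.20. Gfra1, the GDNF co-receptor, read −1.31, −1.45, −1.17 and −0.63 on the aged arrays and −0.88, −0.27, 0.04 and 0.09 on the young arrays. Aged replicate 4 and young replicate 1 overlapped, and the other aged arrays lay below all young arrays. The change was −0.89 ± 0.25 (SE, n = 4 each, limma adjusted p = 0.0742), and −1.10 with an adjusted p of 0.0084 without young replicate 1 (0.00282 to 0.356 over 25 alternatives). Ret, the receptor kinase that Gfra1 pairs with, changed by −0.41 ± 0.14 (SE, limma adjusted p = 0.104) with groups that did not overlap. Nanos2, an RNA-binding protein of undifferentiated spermatogonia, changed by −0.24 ± 0.13 (limma adjusted p = 0.235). The ETS factor Etv5 changed by −0.16 ± 0.12 (limma adjusted p = 0.369) and the repressor Bcl6b by 0.05 ± 0.18 (limma adjusted p = 0.864). With normexp and 75th percentile scaling Nanos2 was at −0.02 and Etv5 at −0.07.

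For each tested member the 2 genes whose centred levels over the 8 arrays were nearest to it, by root mean square difference on the log2 scale, are given as a description. Fgfr1 was nearest to Jak3 (0.16) and Epha7 (0.19). Fgfr2 was nearest to Hipk4 (0.04) and Arih1 (0.05), and Fgfr3 to Slc38a5 (0.11) and Insig1 (0.12). Fgf2 was nearest to Dcxr and Plagl1 (0.12 each), and Dusp6 to Il11ra1 and Pecam1 (0.06 each). Spry2 was nearest to Kctd4 and Cnp (0.14 each), and Spry4 to Krtap10-10l1 and Ykt6 (0.07 each).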

How the data were processed

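Grouping followed the age in the labels (4 aged and 4 young arrays), and members and gene lists were chosen with earlier results of these data known. The deposited scanner output holds a processed intensity which, per the file headers, Agilent Feature Extraction 10.7.3.1 had corrected for background, with no scaling between arrays. The submitters' processing notes give version 12.5. Total RNA of 18 ng per sample was amplified with Cy3 dye, per the labels' protocols. A series table of the authors, deposited as log2 values, matched the scanner output at slope 1, with an array shift within 0.00598 of the 75th percentile and each probe centred on its median of 0 over the 8 arrays. Its column medians were −0.02, 0.05, 0.07 and −0.003 for aged replicates 1 to 4 and 0.09, −0.07, −0.14 and −0.06 for young replicates 1 to 4.

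Control and outlier spots were left out, log2 was taken, spots of a probe were averaged and the 75th percentile over probes was subtracted. Probes (30367, of which 17998 were named) were matched by accession to RefSeq GRCr8 names. No array coordinates were used. Dim probes were removed, where under 0.5 of the spots of a probe exceeded background on some array in both groups, or a group had under 2 values, and the brightest probe stood for a gene. Testing used limma 3.58.1 in R 4.3.3 (eBayes after lmFit, two-sided, moderated df 9.15). Precision is limited by the 8 arrays. Tested on simulated data of 10232 genes for this comparison, the fit recovered 18% of log2 changes of 0.5, 74% of 1 and 90% of 2. Of its calls 2.9% were false. Each simulated gene varied on its own, without differences that many genes of an array share, such as those of young replicate 1. These rates therefore may not hold for the real arrays. The report names the 9 members, Cd9, Etv5, Bcl6b and Gfra1, the 3 genes of smallest p in each pathway list (none was called) and, for each member, the 2 genes of most similar level. Gene markers of cell types are described by list. Alternatives covered scaling, background correction, filters, probes, variance models, array weights, a replicate block and leaving out each array. The normexp alternatives added an offset of 50 units to each corrected signal, which makes log2 changes of dim probes smaller. Same-numbered aged and young arrays had correlations of deviations of −0.26, −0.11, 0.44 and 0.35. Those of unlike-numbered arrays ran from −0.66 to 0.69. These values cannot settle whether replicate numbers pair the samples, and the main fit used no pairing.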

Additional observations from a re-analysis of the deposited data

Results flagged for a closer look

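Fgf13, the intracellular FGF, read 0.89 on young replicate 1, while the remaining young arrays lay at 0.36 to 0.44. Grb2, the receptor adaptor, read 2.29 on young replicate 1, while the remaining young arrays lay at 1.92 to 1.97. In both, the gap between young replicate 1 and the nearest young array was above the critical share of the group range in Dixon's test, at 0.848 for Fgf13 and 0.881 for Grb2. Of 70 groups of 4 arrays examined, 2 met this limit, and chance gives it in about 1 of 20 groups.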

How the results depend on the processing

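Fgfr1, Fgfr2, Fgfr3 and Spry2 kept their direction in all 25 alternatives. Array weights put Fgfr1 (−0.755), Fgfr2 (−0.434) and Fgfr3 (−0.455) past the threshold. With these weights 3 of 7 members and 20 of 65 pathway genes were called, beside 44.6% of all genes (4563). Leaving out 1 array gave 0 to 2 members, 0 to 15 pathway genes and 0 to 3928 of all genes (3928 without young replicate 1, 0 or 1 otherwise), with Fgfr1 at −0.753 to −0.412, Fgfr2 at −0.455 to −0.344 and Spry4 at −0.018 to 0.228. At adjusted p under 0.1 the counts were 1 member, 3 pathway genes and 1678 genes, and with every probe a feature 1 member. Of all genes, 1335 were called with median scaling, 259 with normexp and quantile scaling, 633 with normexp and 75th percentile scaling and 427 with an intensity trend in the variance, each with 1 pathway gene. None was called with no scaling, spike-in scaling, no filter or unnamed probes tested too (0 each, with 1388, 3414, 3339 and 4929 at an unadjusted p under 0.05). With the replicate block 0 genes passed limma (3231 with unadjusted p below 0.05), and the dimmer Fgfr2 probe stayed at −0.742 with adjusted p 0.0782. That probe also lost its call with quantile scaling (−0.568), no scaling (−0.773), spike-in scaling (−1.141), normexp and quantile scaling (−0.244), normexp and 75th percentile scaling (−0.276), no filter, a robust variance or unnamed probes tested too (−0.742 each), and leaving out 1 array (−0.814 to −0.676), except young replicate 1. Fgf2 turned to 0.058 with quantile scaling, 0.032 with median scaling, 0.037 and 0.056 with normexp (quantile, 75th percentile) and 0.02 with array weights, and Dusp6 to 0.053 with median scaling. Spry4 turned to −0.305 with spike-in scaling and −0.132 as the mean of its probes, and Bcl6b to −0.349 and −0.206. Fgf3 turned to 0.011 with quantile scaling and 0.003 with normexp and quantile scaling, and Fgf1 to −0.007 with no scaling and −0.375 with spike-in scaling. Leaving out 1 array also turned Fgf1 (range −0.052 to 0.13) and Bcl6b (range −0.043 to 0.203). Spike-in scaling turned Fgf13 (−0.289), Grb2 (−0.067), Map2k2 (−0.07), Rasa1 (−0.124), Nf1 (−0.002), Dusp5 (−0.164) and Fosl1 (−0.068). Where a value turned, the cause was not tested. Signal over background limits Fgfr4, Fgf2 and the dim probes of Fgfr2.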
